A study of Mus musculus with 14 samples.

Results

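The regions described here are all 4930 islands, of 201448 enriched regions in the 11 lists of the series, that were called with a Cas9 antibody in mouse neurospheres. Islands are runs of enriched windows that the authors joined across gaps, and all islands of the 3 lists were taken, without selection on a value. The list of cells labelled U6 held 2966 islands, that of Suz12F1 held 916 and that of Suz12F2 held 1048. All 3 cultures were neurospheres, floating cultures of neural cells, with the genotype p53-/-;p18-/-, so the U6 cells lacked both tumour suppressors too. The chromatin was pulled down with the Clontech Cas9 antibody. The meaning of U6, F1 and F2 and the form of Cas9 in the cells are not stated in the labels. The series also holds Gfi1 antibody lists from neurospheres labelled Cas9 and Suz12F2, and lists of 3 histone marks from tumour cells of this genotype with and without Ezh2. Each label had 1 library, so replicate errors and p-values cannot be given, and a difference between labels cannot be told apart from a difference between libraries. Intervals are Wilson 95% intervals for counting error alone, read depth is unknown, and positions are in build mm9.

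Cas9 is a nuclease that a guide RNA directs to a matching DNA stretch beside a short motif called a PAM, and an antibody against it can recover the places where the protein sits. U6 is the name of a promoter often used to express guide RNAs. Suz12 is a core subunit of Polycomb repressive complex 2, which also holds Eed and the methyltransferase Ezh2 or Ezh1 and methylates lysine 27 of histone H3. The comparison asked whether the Suz12F1 or Suz12F2 list held sites that the U6 list lacked, above all at Suz12 itself.

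No island of either Suz12 label was called at the Suz12 locus. In the window chr11:79780001-79870000, the U6 list held 1 island and the Suz12F1 and Suz12F2 lists held 0. The U6 island ran from 79805201 to 79808600, was 3400 bp long and had a score of 22, a whole number given by the authors that was used to rank islands within a list. It shared this score with 31 islands in all, from rank 109 of 2966 on, and 139 islands, or 4.69% of the list, scored as high or higher. For scale, 1.34% of all 263865 bins of 10 kb held a U6 island, 0.445% held a Suz12F1 island and 0.523% held a Suz12F2 island. Few places of the genome had an island in any of the 3 lists, so an empty stretch was the common state.

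The nearest islands of the Suz12 lists lay far outside the window. In Suz12F1 they ran from 79269401 to 79273000, 507 kb before the window, and from 80125801 to 80127800, 255.8 kb after it, with scores of 51 and 30. In Suz12F2 they ran from 79524601 to 79525600, 254.4 kb before, and from 80114201 to 80115600, 244.2 kb after, with scores of 15 and 14. The U6 list had an island 24.0 kb after the window, from 79894001 to 79895400, and one 229.6 kb before it, from 79549601 to 79550400. With 500 kb added on each side, the region held 10 U6 islands, 1 Suz12F1 island and 2 Suz12F2 islands.

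The U6 island at Suz12 sat on chromatin that carried active marks in tumour cells. It overlapped 2 H3K4me3 peaks of Cas9 tumour cells, a promoter mark, of which the higher-scoring ran from 79806606 to 79807632. It also overlapped 2 peaks of H3K27ac, a mark of active promoters and enhancers, and 0 regions of H3K27me3, the mark that Polycomb repressive complex 2 writes. In the Ezh2 knockout tumour cells it overlapped 1 H3K4me3 peak and 2 H3K27ac peaks. Both Gfi1 antibody lists had an island there, and each covered 76.5% of its length. Under the Suz12F2 label this Gfi1 antibody island ran from 79804801 to 79807800, so the place was called there with the other antibody and not with the Cas9 antibody. The libraries of the 2 antibodies are separate, and the labels do not say whether they came from the same culture.

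**Figure D1:**
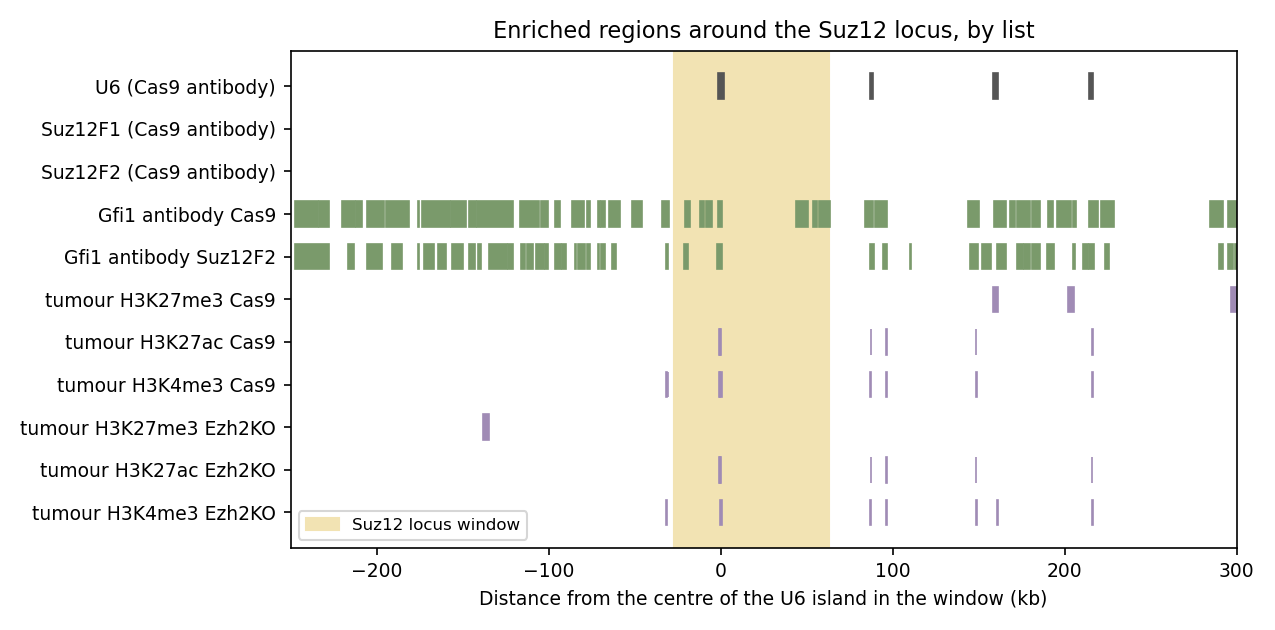
Enriched regions around the Suz12 locus, 1 row per list, with the distance in kb from the centre of the U6 island on the horizontal axis and the 90 kb locus window shaded. The only Cas9 antibody island in the window is that of U6, over H3K4me3 and H3K27ac peaks of tumour cells and an island of each Gfi1 antibody list.

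How often the Suz12 lists called islands like this one was counted next. In the U6 list, 892 islands overlapped a Cas9 tumour peak of H3K4me3 and of H3K27ac and an island of both Gfi1 antibody lists. Of these, 225 were called in Suz12F2, or 25.2% (22.5 to 28.2), and 1 was called in Suz12F1, or 0.112% (0.0198 to 0.632). Among the 48 that scored 22 or more, the Suz12 island included, 27 were called in Suz12F2, or 56.3% (42.3 to 69.3), and 0 in Suz12F1, an interval of 0 to 7.41%. With the Suz12 island left out, 20 of the other 47 lacked a call in Suz12F2 and 47 lacked one in Suz12F1. For scale, 15.1% of all 2966 U6 islands were called in Suz12F2 and 0.506% in Suz12F1. In the highest-scoring 20% of the U6 list, whose lowest score was 15, these shares were 31.6% and 1.68%. Only 7 of the 916 Suz12F1 islands overlapped an H3K4me3 peak anywhere, and this mark was used to form the group.

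The Suz12 promoter is shown because it is the locus the labels name. RefSeq gives it, in build GRCm38.p6 on the plus strand of chromosome 11, as 250 bases before the transcript start and 50 after it. The capitals mark each pair of G that follows another base, which is the PAM of the widely used Cas9 of Streptococcus pyogenes (NGG) read on the printed strand. The table is in another build than the islands, so the sequence was not placed within the U6 island.
Suz12 promoter: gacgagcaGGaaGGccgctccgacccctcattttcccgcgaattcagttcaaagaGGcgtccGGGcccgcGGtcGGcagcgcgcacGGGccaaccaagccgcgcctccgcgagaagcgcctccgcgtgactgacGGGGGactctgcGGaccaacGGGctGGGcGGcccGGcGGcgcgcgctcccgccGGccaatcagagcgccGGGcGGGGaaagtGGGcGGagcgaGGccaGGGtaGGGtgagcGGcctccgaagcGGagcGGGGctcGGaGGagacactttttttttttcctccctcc
It holds NGG at 42 positions on this strand and 31 on the other, overlapping matches counted, 73 in all. The median of 32851 promoters of this length was 48, 100% held at least 1 and 13.8% held at least 73. It holds CG at 41 positions, against a median of 7, where 94.6% of promoters held at least 1 and 3.46% held at least 41. The labels name no guide sequence, so no target site was searched.

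Taken genome-wide, the lists shared few places, and nearly all that were shared were shared by U6 and Suz12F2. Merging overlapping islands of the 3 lists gave 4459 regions, of which 4002, or 89.8% (88.8 to 90.6), came from 1 list alone. Of the rest, 439 joined U6 and Suz12F2, 9 joined U6 and Suz12F1, 4 joined both Suz12 labels and 5 joined all 3. A merged region can chain islands: at chr11:71563201-71569600 the U6 island met islands of both Suz12 lists that did not overlap each other.

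Many Suz12F2 islands were shared with U6, but most U6 islands were not in the Suz12F2 list. U6 islands overlapped 448 of its 1048 islands, or 42.7% (39.8 to 45.8), and in the other direction 448 of 2966 U6 islands were overlapped, or 15.1% (13.9 to 16.4). With each Cas9 antibody list cut to its 916 highest scores, the share of Suz12F2 fell to 25%. Between the full lists the shared length was 834.2 kb, which is 23.7% of the length of the Suz12F2 islands and 12.0% of the U6 islands. Of the 10 kb bins with a Suz12F2 island, 37.9% (35.4 to 40.5) also held a U6 island, 28.2 times the 1.34% of all bins.

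The Suz12F1 list shared little with either. U6 islands overlapped 14 of its 916 islands, or 1.53% (0.913 to 2.55), and Suz12F2 islands overlapped 8, or 0.873% (0.443 to 1.71). The share with U6 was 3.28% when islands within 5 kb counted as shared, and that with Suz12F2 was 1.64%. This left 898 islands, 98.0% of the list, in no other Cas9 antibody list. At the level of 10 kb bins, 3.66% (2.73 to 4.90) of those with a Suz12F1 island held a U6 island, 2.72 times the share of all bins, and 2.13% (1.45 to 3.12) held a Suz12F2 island, 4.07 times the 0.523% of all bins. The median gap from a Suz12F1 island to the nearest island was 167.3 kb in U6 and 559.8 kb in Suz12F2. These lists held 2966 and 1048 islands, and a list with more islands leaves shorter gaps.

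Most islands that were absent from the other Cas9 antibody lists were still called with the Gfi1 antibody, which recognises another protein. Of the 898 such Suz12F1 islands, 583, or 64.9% (61.7 to 68.0), were in at least 1 Gfi1 antibody list. For Suz12F2 these were 419 of 596, or 70.3% (66.5 to 73.8), and for U6 1874 of 2508, or 74.7% (73.0 to 76.4). In the reverse direction, Gfi1 antibody islands of Cas9 neurospheres were overlapped by U6 in 3.43% of 63177 cases, by Suz12F1 in 0.962% and by Suz12F2 in 1.35%. The share of bins with an island of either Gfi1 antibody list was not computed. The Gfi1 antibody islands of Cas9 cells alone reached 27% of all 10 kb bins. Bins with an island of a Cas9 antibody list also held one of them in 77.2% of cases for U6, 71.0% for Suz12F1 and 76.7% for Suz12F2.

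**Figure D2:**
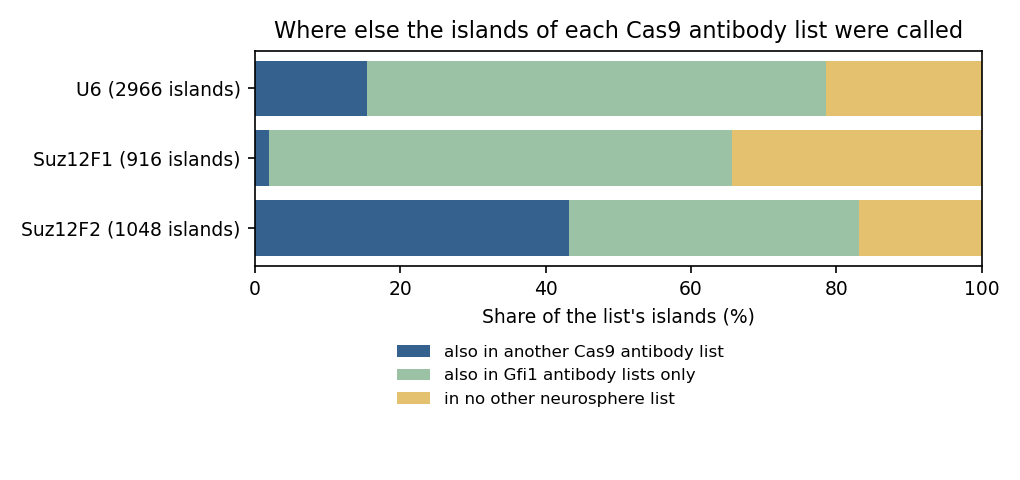
Share of the islands of each Cas9 antibody list, in percent, that were also called in another Cas9 antibody list, in a Gfi1 antibody list only, or in no other neurosphere list. Suz12F2 has the widest first part and Suz12F1 the narrowest, while the last part is 21.4%, 34.4% and 16.9% of U6, Suz12F1 and Suz12F2.

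Islands in no other neurosphere list were the candidates for label-specific sites. For Suz12F2 the other lists include a Gfi1 antibody list of its own label, and that list alone removed 13 islands. The candidates numbered 315 in Suz12F1, or 34.4% (31.4 to 37.5), 177 in Suz12F2, or 16.9% (14.7 to 19.3), and 634 in U6, or 21.4% (19.9 to 22.9). Cells of the U6 label thus had such islands as well, and their share lay between those of the Suz12 labels.

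These islands lay away from the promoter mark H3K4me3 under every label, but the class left out all islands met by a Gfi1 antibody list. Tumour H3K4me3 peaks of Cas9 cells overlapped 0 of the 315 in Suz12F1, 0 of the 177 in Suz12F2 and 2 of the 634 in U6. The median gap to the nearest such peak was 162.4 kb, 312.5 kb and 245.1 kb, and 59.7% (54.2 to 65.0), 75.1% (68.3 to 80.9) and 70.8% (67.2 to 74.2) lay over 100 kb from one. In the whole lists of Suz12F1, Suz12F2 and U6, 40.7%, 19.2% and 24.2% of islands lay that far from a peak. H3K27me3 of Cas9 tumour cells overlapped 10, 0 and 21 of them, or 3.17% (1.73 to 5.74), 0% (0 to 2.12) and 3.31% (2.18 to 5.01). Over the whole lists it overlapped 16.8%, 24.5% and 25.3%. The Gfi1 antibody lists also cover many promoters. Among islands in no other Cas9 antibody list, H3K4me3 overlapped 7 of 898 (Suz12F1), 327 of 596 (Suz12F2) and 1111 of 2508 (U6). Those then left out for a Gfi1 antibody list held 7, 327 and 1109 of these overlaps. The low H3K4me3 shares in Suz12F2 and U6 were thus set by how the class was formed. Part of the low H3K27me3 shares and of the distance was set by it too. In Suz12F2 the candidate islands were longer than the list, with a median of 4600 bp against 3000 bp. Their median score, 17, was that of the list. In Suz12F1 they had the length and score of the list, with medians of 2600 bp and 32.

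The highest-scoring of these islands in Suz12F1 lay at chr3:8244601-8247400 and chr13:3372201-3373400, with scores of 146 and 143 at ranks 14 and 15 of the list. The next 3 scored 69, 68 and 67 and lay at chr11:71257001-71262000, chr13:42569401-42575600 and chr1:156169201-156175000. In Suz12F2 the highest, at chr4:70039001-70042200, scored 57 at rank 19. It was followed by chr16:3263001-3275000 with 39 and chr2:44492001-44501800 with 38. The other two, at chr15:43013401-43025600 and chr17:16450601-16459200, scored 28 and 27. In U6 the highest scored 26, at chr14:67815001-67821000, at rank 63. All of these overlapped 0 regions in the 6 tumour lists. The islands that ranked above them under each label were, chromosome 18 not counted, found in at least 1 other neurosphere list.

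The highest-scoring islands of all were shared background in the plain sense that they were called under every label. The island at chr17:39979801-39985800 ranked 2 in Suz12F1 with a score of 2182, and the islands over it ranked 1 in U6 and 1 in Suz12F2, with 2283 and 2484. The island at chr11:3025401-3100400, the longest of the Suz12F1 list at 75000 bp, ranked 1 there and 2 in the other two. Its score of 9709 made up 20.2% of the summed score of the Suz12F1 list. Each Gfi1 antibody list had islands over both places. A further island on chromosome 15, from 74915801 to 74917600 in Suz12F1, ranked 4, and those over it ranked 9 in U6 and 9 in Suz12F2. It was called with the Cas9 antibody under all 3 labels and overlapped 0 islands of either Gfi1 antibody list.

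A second group of high scores was shared by U6 and Suz12F2 and absent from Suz12F1. On chromosome 2 the islands from 98502201 to 98505400 had the same ends in both lists, with scores of 525 in U6 and 653 in Suz12F2. The neighbouring islands, from 98506201 to 98507600 in U6 and to 98508600 in Suz12F2, scored 606 and 645. On chromosome 9 the islands from 2999801 to 3006000 in U6 and to 3003200 in Suz12F2 scored 289 in each list. Those from 3024601 to 3030400 in U6 and from 3020401 to 3030400 in Suz12F2 scored 306 and 534. These 4 pairs held ranks 3 to 6 in both lists. None of them was overlapped by an island of Suz12F1 or of a Gfi1 antibody list, or by a region of a tumour list.

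Places close to the first assembled base of a chromosome were few but frequent among the highest scores. Mouse chromosomes have their centromere at one end, so these places lie beside centromeric satellite DNA, for which no filter was applied here, and the part of repeats in the shared islands was not tested. Islands that start within the first 3.2 Mb, chromosome 18 left out, were 12 of 2966 in U6, 6 of 916 in Suz12F1 and 11 of 1048 in Suz12F2. They made up 6, 4 and 7 of the 20 highest-scoring islands. They held 5.98%, 21.5% and 12.3% of the summed score of their lists, but 3.37%, 20.2% and 6.89% belonged to the one long island on chromosome 11 described above. With that island removed, the others held 2.70%, 1.63% and 5.79%. Chromosome 9 gave 5 of them in U6, 6 in Suz12F2 and 0 in Suz12F1.

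Both Suz12 labels together gave 8 islands per list, and 4 of these were outside U6. Those outside U6 were 8 when both lists were added up, so that each place counted once per list. This sum was 4 in the upper 50% of scores and 13 when islands within 5 kb counted as shared. The one at chrX:73843801-73844600 had the same start and end in both lists, scored 178 at rank 10 in Suz12F1 and 46 at rank 25 in Suz12F2, and was called in no Gfi1 antibody list. The island at chr16:3238201-3242600 in Suz12F1, at rank 22, and that from 3239001 to 3245600 in Suz12F2, at rank 37, were met by Gfi1 antibody islands of Cas9 cells over 90.9% and 48.5% of their lengths. The pair on chromosome 17, from 15447401 to 15450000 and from 15443801 to 15451000, was covered to 84.6% and 55.6% by that list. The pair on chromosome 14, from 37030401 to 37032800 and from 37027801 to 37032000, was met by no Gfi1 antibody island and stood at rank 654 of 916 and 655 of 1048. None of the 4 overlapped a tumour region, and none lay on chromosome 11, where Suz12 is.

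The overlap between U6 and Suz12F2 was not limited to these few high scores. Each list was cut by score into 5 groups that each held 20% of its islands. U6 islands were overlapped by Suz12F2 in 31.6% (28.0 to 35.5) of the highest group and 16%, 11.3%, 8.60% and 7.93% of the next ones. Suz12F2 islands were overlapped by U6 in 63.8% (57.1 to 70.0) of the highest group, 47.6%, 32.4% and 29.7% of the next 3, and 40.2% (33.8 to 47.0) of the lowest. Suz12F1 islands were overlapped by U6 in 5.43% (2.98 to 9.71) of the highest group and in 0% to 1.09% of the others. The shared part of Suz12F1 thus sat at its top, with 10 of the 14 islands in 1 group, while that of Suz12F2 ran through the whole list. Scores tie at the borders between groups, and tied islands were ordered by position. The groups also differed in length. Median lengths in the highest and lowest groups were 4200 and 1800 bp in Suz12F1, 4500 and 1600 bp in Suz12F2, and 3200 and 1400 bp in U6. The part of length in these shares was not tested.

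**Figure D3:**
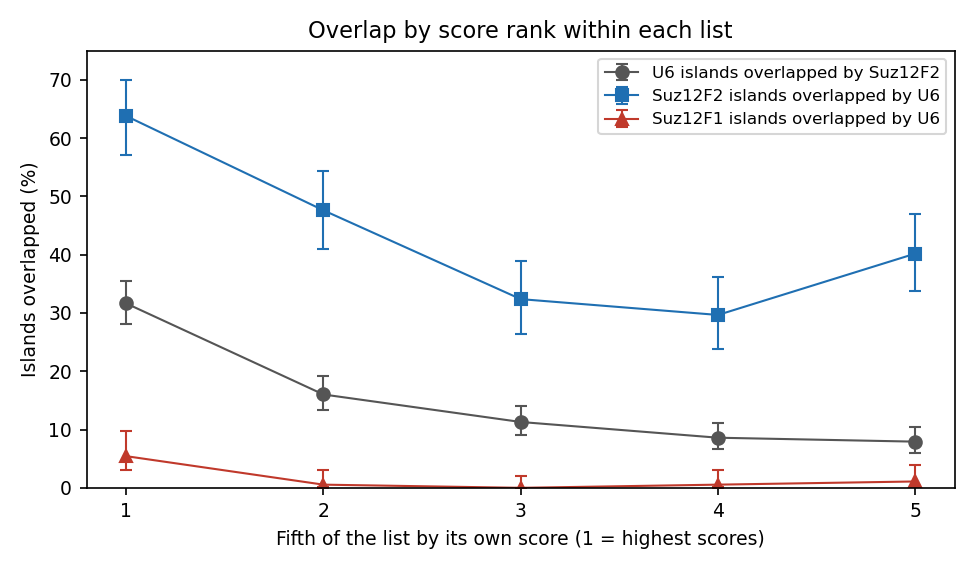
Share of islands overlapped by the other list, in percent, against the group of the list by its own score, from the highest scores (1) to the lowest (5), with Wilson 95% intervals for counting error. U6 and Suz12F2 overlap in every group and most in the highest, while Suz12F1 stays at or under 5.43%.

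The islands of Suz12F1 also differed from the other lists in where they lay. H3K4me3 peaks of Cas9 tumour cells overlapped 7 of the 916, or 0.764% (0.371 to 1.57), against 49.2% of the U6 list and 64.0% of the Suz12F2 list. Counted by peaks, 0.0557% of 14363 H3K4me3 peaks were overlapped by Suz12F1, 13.2% by U6 and 6.39% by Suz12F2. The median gap from a Suz12F1 island to the nearest peak was 74.3 kb, and 14.3% lay 5 to 20 kb and 39.5% lay 20 to 100 kb from one. The Gfi1 antibody islands of Cas9 neurospheres had 16% and 37.2% in these ranges, and the H3K27me3 regions of Cas9 tumour cells had 14% and 39.2%. Of those lists, however, 14.1% and 10.8% overlapped a peak. In 10 kb bins, 4.77% (3.69 to 6.14) of those with a Suz12F1 island held an H3K4me3 peak, close to the 4.41% of all bins, whereas the U6 and Suz12F2 bins reached 47.1% and 56.5%.

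**Figure D4:**
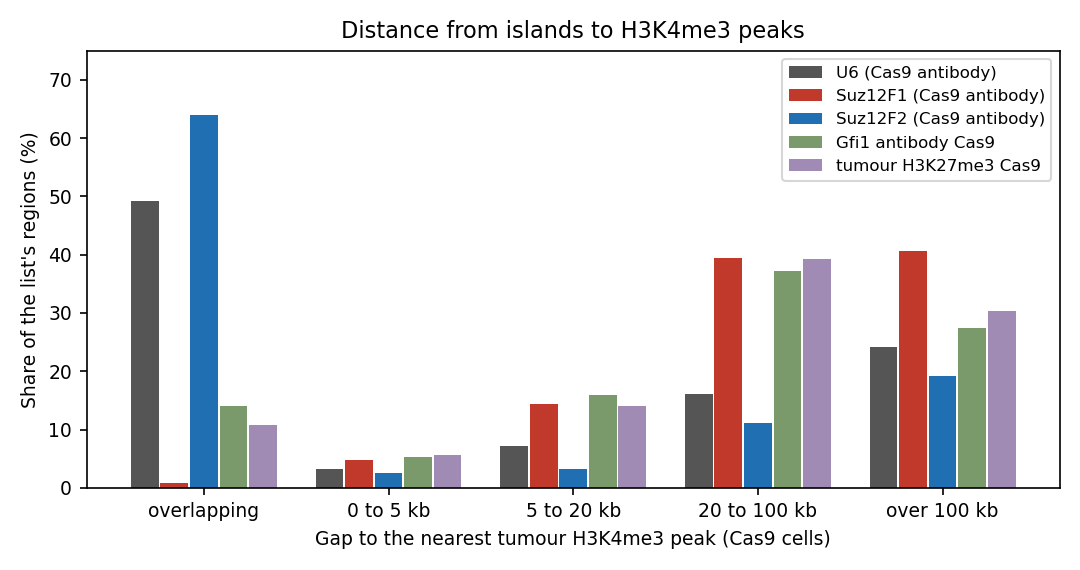
Share of the regions of 5 lists, in percent, by the gap to the nearest H3K4me3 peak of Cas9 tumour cells. The U6 and Suz12F2 bars are highest where the gap is none, at 49.2% and 64.0%, and the Suz12F1 bar there stands at 0.764%.

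Suz12F2 islands outside U6 also lay at histone marks of tumour cells. Of its 600 islands outside U6, 327, or 54.5% (50.5 to 58.4), overlapped an H3K4me3 peak, against 344 of 448, or 76.8% (72.7 to 80.5), of those in U6. For H3K27ac of Cas9 tumour cells the shares were 37.5% (33.7 to 41.4) and 52.0% (47.4 to 56.6), and for H3K27me3 17.7% (14.8 to 20.9) and 33.7% (29.5 to 38.2). For scale, 2.59% of all 10 kb bins held an H3K27ac peak and 6.37% an H3K27me3 region, and of the bins with any Suz12F2 island 37.2% (34.7 to 39.8) and 26.2% (24.0 to 28.6) did. Gfi1 antibody islands of Cas9 cells met 68.0% (64.2 to 71.6) and 94.4% (91.9 to 96.2). The highest-scoring Suz12F2 island that was in no other Cas9 antibody list and lay at a promoter mark was at chr11:120682001-120691400. It scored 39 at rank 29, overlapped H3K4me3 and H3K27ac peaks in both kinds of tumour cell and H3K27me3 in the knockout cells, and was covered to 100% by each Gfi1 antibody list. The island at chr9:95302001-95308400, with a score of 38, overlapped H3K27me3 and H3K4me3 of Cas9 tumour cells.

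Among Suz12F1 islands in no other Cas9 antibody list, the highest scores belonged to long islands that the Gfi1 antibody also gave. That at chr1:90108001-90166800 was 58800 bp long, scored 2039 at rank 3 and was covered to 100% by the Gfi1 antibody list of Cas9 cells. The islands at chr4:3006401-3015000, chr17:13404201-13417400 and chr14:69967801-69981000, with scores of 258, 219 and 197, were covered to 83.7%, 100% and 86.4%. The one at chr7:46528601-46546400, with a score of 366, was covered to 31.5%. Only that on chromosome 17 among these 5 overlapped a tumour region, of H3K27me3 in Cas9 and in knockout cells.

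In U6 the 5 highest-scoring islands that neither Suz12 list held were led by chr17:13743001-13746200, with a score of 75 at rank 13. It overlapped the Gfi1 antibody list of Suz12F2 cells alone. The other 4 lay at chr4:109650201-109655200, chr15:81522201-81525600, chr2:25429401-25436400 and chr1:93240401-93244400, with scores of 34, 33, 31 and 29. All 4 overlapped H3K27me3 of Cas9 tumour cells and islands of both Gfi1 antibody lists, and 3 of them overlapped H3K4me3.

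Within the Suz12F1 list the score followed the length closely. The score per kb had a median of 12.5 and quartiles of 11.4 and 14.4, so that the upper quartile was 1.27 times the lower. In U6 and Suz12F2 this ratio was 1.89 and 1.98. Islands under 1 kb were 7 in Suz12F1, 281 in U6 and 45 in Suz12F2, and the median lengths were 2600, 2200 and 3000 bp. The smallest score was 15 in Suz12F1, 8 in U6 and 10 in Suz12F2.

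**Figure D5:**
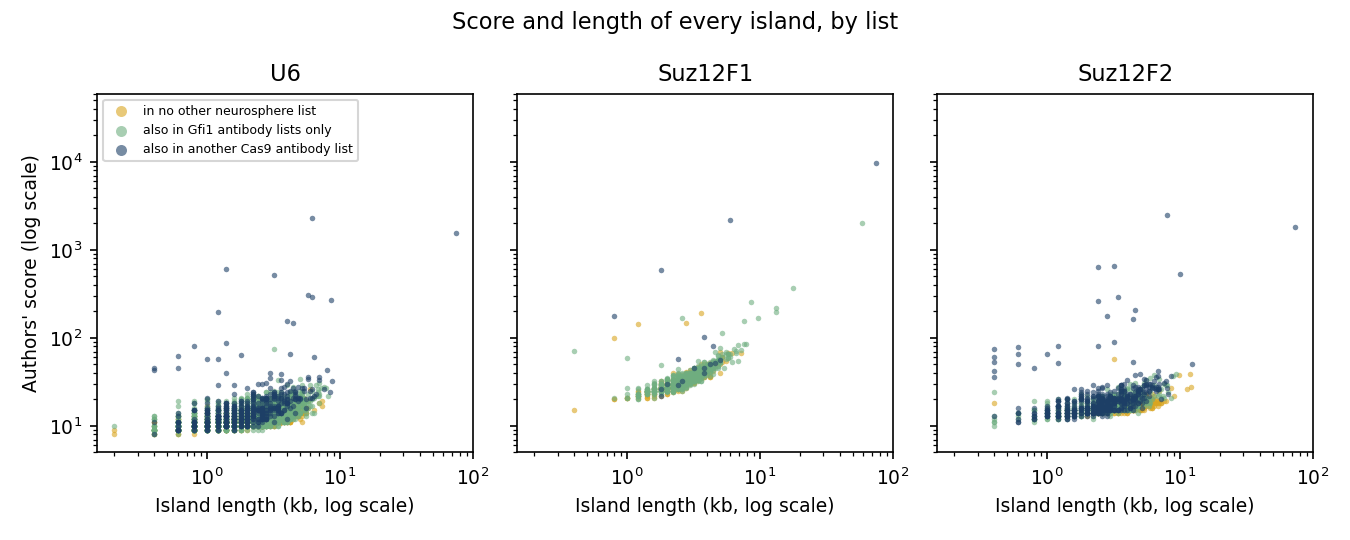
Score against length in kb, both on log scales, for every island of the 3 lists, coloured by where else the island was called. Most Suz12F1 islands form a narrow band in which score rises with length, and the U6 and Suz12F2 islands scatter more widely.

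The lists also differed in their spread over chromosomes. Chromosomes 7 and 11 held 272 of the 916 Suz12F1 islands, or 29.7% (26.8 to 32.7), against 19.7% (18.3 to 21.2) in U6 and 16.6% (14.5 to 19.0) in Suz12F2. The Gfi1 antibody list of Cas9 cells had 16.2% of its islands there and the H3K4me3 list of Cas9 tumour cells 16.1%. These chromosomes were picked after the counts were seen. On chromosome 11, which carries Suz12, the numbers were 141 in Suz12F1, 303 in U6 and 98 in Suz12F2, and none of the 141 and 98 fell in the Suz12 window.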

How the data were processed

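Each neurosphere library had 1 list of enriched islands, whose name gives windows of 200 bp, gaps of 600 bp and a false discovery rate of 0.00001. Build mm9, SICER 1.1, BWA 0.5.9-r26, R 2.14.0, SAMtools and Picard were used per the submitters' processing notes, which state no role or order. The input behind each list, the read totals and the meaning of the score are not given in these sources. The score the authors deposited was used within its own list, for ranks, shares of the summed score and score per kb. Scores printed side by side from different lists were not put on a common scale. Starts were raised by 1 bp in all lists, so printed positions count from 1. Ends were raised by 1 bp in the island lists alone, because these count from 0 and include the last base. The 3 input libraries were not used here.

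Overlaps of at least 1 bp, gaps and shares of 10 kb bins were computed here with scipy 1.17.1, numpy 2.4.6 and Python 3.11.15. The overlaps were checked with bedtools 2.31.1 in 60 comparisons, of which 0 differed, and the code was tested on simulated data. Figures used matplotlib 3.10.9. Groups came from the titles, and with 1 library per label no test across samples was possible.

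The regions, window and comparisons were chosen with earlier results of these data known. The rule for named islands took the 5 highest scores per list that were called there alone among the 5 neurosphere or 3 Cas9 antibody lists, in all 3, or in U6 and Suz12F2 only, then all islands in both Suz12 lists and those beside the Suz12 window. Not all are shown, and chromosome 18 was left out. The group of U6 islands like the one at Suz12 was formed after its marks were seen. No mm9 annotation was used here, so islands carry no gene names beyond the Suz12 window. Alternatives were 50% cover, Cas9 antibody lists of equal number, a tolerance of 5 kb and a wider Suz12 window. Others cut every neurosphere list to the upper 50% of its scores or to islands of at least 1 kb.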

Additional observations from a re-analysis of the deposited data

How the results depend on the processing

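No paired analysis was possible because each label had 1 library, and no library could be left out for the same reason. The share of Suz12F2 islands overlapped by U6 was 29.7% when 50% of the island had to be covered, 25% with the Cas9 antibody lists trimmed to equal numbers and 39.3% for islands of at least 1 kb. The U6 overlap of Suz12F1 was 3.28% when islands within 5 kb counted as shared, and Suz12F1 stayed below Suz12F2 in this overlap in all 5 alternatives run. The share called in no other neurosphere list rose with 50% cover, to 39.4% in Suz12F1 and 22.8% in Suz12F2. For Suz12F1 it was 42.8% in the upper 50% of scores and 23.8% when islands within 5 kb counted as shared. At the upper 50% every neurosphere list was cut, the Gfi1 antibody lists included, so the lists compared against were smaller too. In the full lists, Gfi1 antibody islands of Cas9 cells overlapped 73.9% of the highest-scoring 20% of Suz12F1 islands. The other groups of 20% had 57.9% to 63.4%. Islands of either Suz12 list in both and outside U6, 8 in all, were 4 in the upper 50% of scores and 13 within 5 kb. With the Suz12 window widened by 500 kb on each side, 13 Cas9 antibody islands fell in it. The other 23 of 34 alternative values stayed within the interval of the reported share or within 1.5 times the reported count. They include the cut lists at the Suz12 window, where the count could not change. Cuts add no island, and the U6 island there, 3400 bp long at rank 109 of 2966, passed each cut. Read depth is unknown, so a place without an island is not shown to lack signal, and the lengths of the lists limit every count of shared islands.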
